A study of Mus musculus with 4 samples.

Results

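The cells described here are CD8+ T cells of MB49 tumours that carried transcripts of both granzyme A (Gzma) and the alpha1 integrin chain Itga1 (CD49a). They were chosen by counts of unique molecular identifiers (UMIs), each of which stands for 1 captured transcript molecule. A cell entered with at least 2 Gzma UMIs, at least 1 Itga1 UMI, at least 1 UMI over Cd3d, Cd3e and Cd3g, and at least 1 over Cd8a and Cd8b1. It also needed fewer than 2 Ccl1 UMIs and fewer than 10 UMIs over Gzmd, Gzme and Gzmf. Of 38519 barcodes in 4 libraries, 37151 passed the limits on depth, and 788 met the rule: 278 in WT, 288 in KO, 140 in Young and 82 in Aged. They were compared with the other 34386 CD3 and CD8 positive cells of the same libraries, called the other CD8 cells below. None of the 788 carried a cell barcode that was found in another library.

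Each library was made from CD45+ CD8+ cells that had been sorted from the tumours of 3 mice and pooled, and each group held 1 library. MB49 is a mouse bladder carcinoma line. WT and KO were subcutaneous tumours in C57BL/6Slac mice 10 to 12 weeks old. The WT mice were wild type, and the KO mice were labelled BFAR-CD8-KO, for a deletion of Bfar in CD8+ T cells. The sources used here give neither the promoter behind this deletion nor the deleted stretch. Young and Aged were tumours in Rag1-/- hosts aged 8 to 10 weeks, labelled B6.129S7-Rag1tm0Mom/J for Young and B6.129S7-Rag1tm1Mom/J for Aged. Such hosts lack T and B cells of their own and keep natural killer (NK) and myeloid cells. CD8+ T cells were injected into their veins on the day of tumour inoculation. The donors were 8 weeks old for Young and 18 months old for Aged, and the sources used here do not name their strain. Host, library kit and Cell Ranger version separate WT and KO from Young and Aged, so levels were never compared across those pairs.

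Granzyme A is a tryptase-like serine protease that cytotoxic lymphocytes store in granules with perforin. Itga1 pairs with the beta1 chain Itgb1 to form a receptor for collagen IV, and its protein marks a subset of tissue-resident memory CD8 T cells in skin and other barrier tissues. The alphaE chain Itgae (CD103) with Itgb7 binds E-cadherin (Cdh1), which some resident T cells also express themselves. Gzma and Itga1 lie on the same arm of chromosome 13 in the mouse, beside granzyme K (Gzmk) and the alpha2 integrin chain Itga2 respectively.

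The gated cells held 2790787 UMIs in WT, 2757877 in KO, 1435589 in Young and 858337 in Aged. Their median UMIs per cell were 7178 in WT, 7575 in KO, 7993 in Young and 8483 in Aged, against 6314, 6853, 4483 and 5748 in the other CD8 cells. A rule that asks for UMIs selects deep cells, so shares of cells are also given after each cell was thinned to 2000 UMIs. Levels are CPM, the UMIs of a gene scaled by all UMIs of the summed cells in the field's usual unit. The CD8 T cell label was checked on Trac and Cd4. Trac had UMIs in 98.2% of the gated WT cells, 96.5% in KO, 77.1% in Young and 84.1% in Aged. Cd4 had UMIs in at most 1 gated cell of any library. The 9 NK markers summed to 230 CPM in the gated and 299 in the other CD8 cells of WT, and to 179 and 210 in KO. In Young they summed to 250 and 212, and in Aged to 181 and 169. Ncr1, a member of that list, was at 0 in the gated KO and Aged cells. It had UMIs in 0.719% of the gated WT and 0.714% of the gated Young cells. Its level in Young was 9.06 CPM in the gated and 0.893 in the other CD8 cells. Bfar stood at 16.3 CPM in KO and 34.4 in WT, a ratio of 0.474 (0.325 to 0.683) within the gated cells, and at 22.7 and 32.1 CPM in the other CD8 cells. Since the deleted stretch is not known here, these tags may lie outside it.

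The gated cells were a small minority in every library. They made up 3.10% of the CD3 and CD8 positive cells in WT (95% exact binomial interval 2.75 to 3.48), 3.53% in KO (3.14 to 3.96), 1.43% in Young (1.20 to 1.68) and 0.994% in Aged (0.791 to 1.23). The KO and WT intervals overlapped, and those of Young and Aged overlapped narrowly. After thinning, the shares were 1.06% in WT, 1.08% in KO, 0.352% in Young and 0.159% in Aged, the last from 12 cells. All intervals on shares, levels and ratios of single libraries cover counting error only and not the variation between mice.

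**Figure D1:**
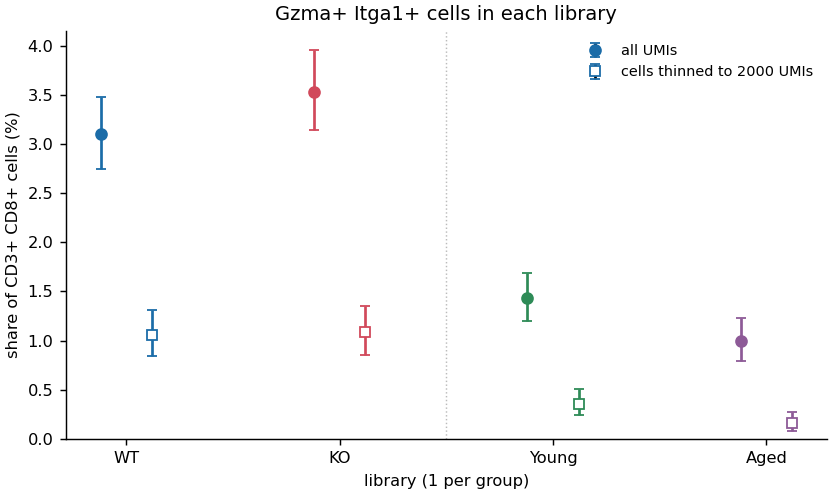
Share of CD3 and CD8 positive cells that met the Gzma and Itga1 rule in each library (y axis, percent), with exact 95% binomial intervals; filled circles use all UMIs and open squares cells thinned to 2000 UMIs. WT and KO overlap at 3.10% and 3.53%, and Young and Aged lie at 1.43% and 0.994%; the dotted line separates pairs that are not compared with each other.

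The genes that set the rule are described without a test. The limits on Ccl1, Gzmd, Gzme and Gzmf were applied to the gated cells only. Ccl1 stood at 1.79 CPM against 62.5 in WT, 4.71 against 146 in KO, 1.39 against 13.9 in Young and 1.17 against 12.1 in Aged. Gzmf stood at 10.0 CPM against 35.5 in WT, 9.79 against 59.2 in KO, 2.79 against 7.95 in Young and 2.33 against 160 in Aged. Gzma stood at 4745 CPM against 169 in WT, 3506 against 163 in KO, 1897 against 221 in Young and 2097 against 112 in Aged. The gated cells held a wide range of Gzma UMIs, with medians of 15 in WT, 9 in KO, 10 in Young and 10.5 in Aged and highest single cells of 507, 779, 279 and 195. Itga1 stood at 189.9 CPM against 38.7 in WT, 202 against 44.2 in KO, 130.3 against 11.2 in Young and 127 against 14 in Aged. It was counted thinly: 50.7% of the gated WT cells, 52.4% in KO, 75% in Young and 80.5% in Aged held exactly 1 Itga1 UMI, so membership of many cells rested on 1 molecule.

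Gzma was found more often in cells that carried Itga1. At least 2 Gzma UMIs were present in 14.9% of the WT cells with Itga1 (13.3 to 16.6) against 5.13% of those without it (4.63 to 5.68). The same shares were 15.6% (14.1 to 17.3) against 7.18% (6.55 to 7.84) in KO, 20.5% (17.6 to 23.7) against 10.2% (9.55 to 10.8) in Young and 10.8% (8.67 to 13.2) against 6.51% (5.96 to 7.09) in Aged. With cells thinned to 2000 UMIs the shares were 12.0% against 4.33% in WT, 11.3% against 5.25% in KO and 12.3% against 6.96% in Young. In Aged the thinned values, 4.92% (2.57 to 8.43) against 4.12% (3.67 to 4.60), had overlapping intervals.

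Cells just inside and just outside the gate are also given as a description. Gzmb, the main granzyme of effector CD8 T cells, stood at 2797 CPM in the gated WT cells and at 2292 in WT cells with Gzma but no Itga1 UMI. In WT cells with Itga1 but no Gzma UMI it stood at 945.7 CPM. Gzmk stood at 216 CPM in the gate, 223 with Gzma alone and 117 with Itga1 alone in WT. Cdh1 stood at 101 CPM in the gate, 56.9 with Gzma alone and 67.9 with Itga1 alone in WT, and at 63.5, 40.7 and 53.9 CPM in KO. Itgae stood at 151 CPM in the gate, 86.3 with Gzma alone and 85.7 with Itga1 alone in WT. The granzyme levels of the gated cells thus lay nearer to those of the Gzma cells without Itga1, and Cdh1 and Itgae were highest in the gate among these 3 classes in WT and KO. Among these 3 classes in Young, both were highest with Itga1 alone, Cdh1 at 36.1 CPM against 27.2 in the gate and Itgae at 95.1 against 58.5. Young cells with Itga1 and 1 Gzma UMI held 142 CPM of Itgae. In Aged, Cdh1 stood at 23.3 CPM in the gate and 26.4 with Itga1 alone, and Itgae at 1.17 in the gate, 10.3 with Gzma alone and 10.1 with Itga1 alone. Cells just inside the Gzma limit, with 2 UMIs, held 2456 CPM of Gzmb in WT, 633 in KO, 1327 in Young and 2453 in Aged. Those just outside, with 1 UMI, held 1317, 922, 1017 and 2915 CPM, so the order changed from library to library. The chemokine and granzyme limits removed 13 WT, 15 KO, 6 Young and 1 Aged cells.

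**Figure D2:**
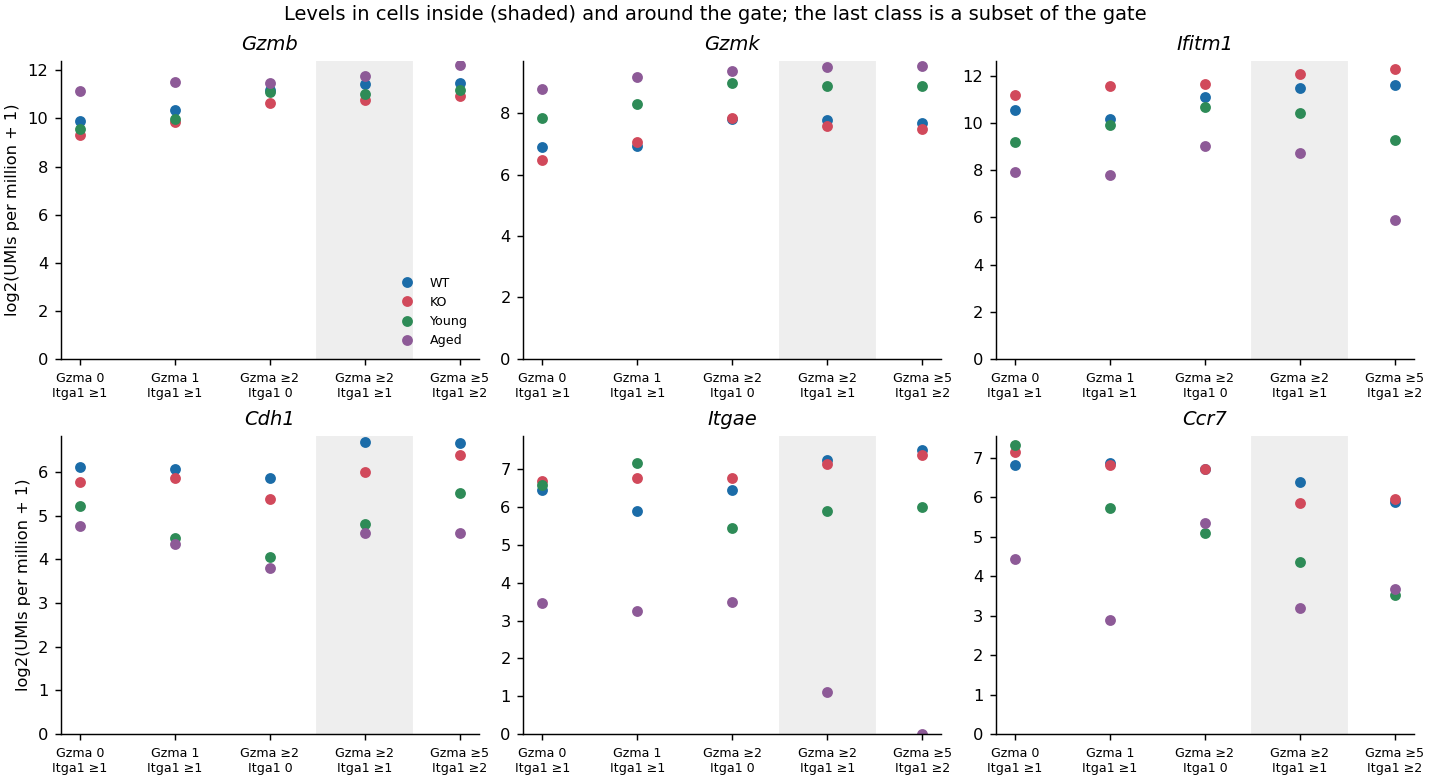
Level of 6 genes as log2(CPM + 1) (y axis) in cells grouped by their Gzma and Itga1 UMIs (x axis), 1 point per library; the shaded class is the gate and the class to its right is a stricter subset of it. Gzmb in WT is near 2797 CPM in the gate and 2292 CPM with Gzma alone, but 945.7 CPM with Itga1 alone, and Itgae in Aged is at 1.17 CPM in the gate.

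The question put to the other genes was which of them differed between the gated and the other CD8 cells of the same library. UMIs were summed over each set of cells in each library, and the 4 differences were tested with edgeR's quasi-likelihood test with the library as a block. The spread behind each p-value is that between 4 libraries that differ in condition and kit. Cells past the limits on Ccl1, Gzmd, Gzme and Gzmf stayed among the other CD8 cells. Genes that go with these 4 may therefore be lower in the gate through the rule itself, which was not tested. Of 13345 genes tested, 238 were higher (1.78%) and 402 lower (3.01%) in the gated cells at an adjusted p below 0.05. Of these, 211 higher and 374 lower genes had the same direction in all 4 libraries. A gene without UMIs in a gated sum counted as lower there even where its outside level was near 0. Mcpt2 in Aged, at 0 against 0.0311 CPM, is an example. Over the 20 pathway lists, 49 genes were higher and 55 lower, of which 20 and 32 kept their calls whichever library was left out. With DESeq2's size factors in place of TMM the split was 311 higher and 347 lower. In counts simulated for this comparison with 200 changed among 13345 genes, 38% of the 1.5-fold, 72% of the 2-fold and 84% of the 4-fold changes were recovered, and 22 calls of unchanged genes were made, 14% of all calls.

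Cdh1, the homophilic adhesion molecule E-cadherin, was higher in the gated cells of all 4 libraries. It stood at 101 CPM against 42.6 in WT, 63.5 against 32.7 in KO, 27.2 against 21.2 in Young and 23.3 against 18.4 in Aged, a log2 fold change of 0.89 ± 0.13 (SE; edgeR adjusted p = 0.00186). The gap was wide in WT and KO and small in Young and Aged, where it rested on 39 and 20 UMIs. The call was lost with a looser gate (0.70, edgeR adjusted p = 0.061). Cdh1 and Csf1 were named as markers with earlier results of these data known, so their tests are not independent support. Csf1, the growth factor of macrophages, did not pass the test over all 4 libraries. It stood at 103 CPM against 43.3 in WT, 99.7 against 55.4 in KO, 28.6 against 38.9 in Young and 37.3 against 32.8 in Aged, a log2 fold change of 0.66 ± 0.18 (SE; edgeR adjusted p = 0.06). The Young cells went against the other 3 libraries, and without Young the value was 0.91 with an edgeR adjusted p of 0.000615. Csf1 also passed with the stricter gate (0.94, edgeR adjusted p = 0.00089), without the barcodes of highest UMIs (0.91, 0.0010), without cells that hold UMIs of other cell types (1.01, 0.0025), without cycling cells (0.97, 1.8e-05) and without a filter on low counts (0.62, 0.036). Csf1 did not pass with DESeq2's own test (0.51, DESeq2 adjusted p = 0.38) or with a looser gate (0.37, edgeR adjusted p = 0.51). Against other cells matched in depth it did not pass either (0.60, edgeR adjusted p = 0.10). Nor did it without WT (0.33, edgeR adjusted p = 0.48), without KO (0.54, 0.29) or without Aged (0.76, 0.14). The difference of Csf1 between the pairs of libraries, chosen after the values were seen, did not pass (edgeR adjusted p = 0.25).

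**Figure D3:**
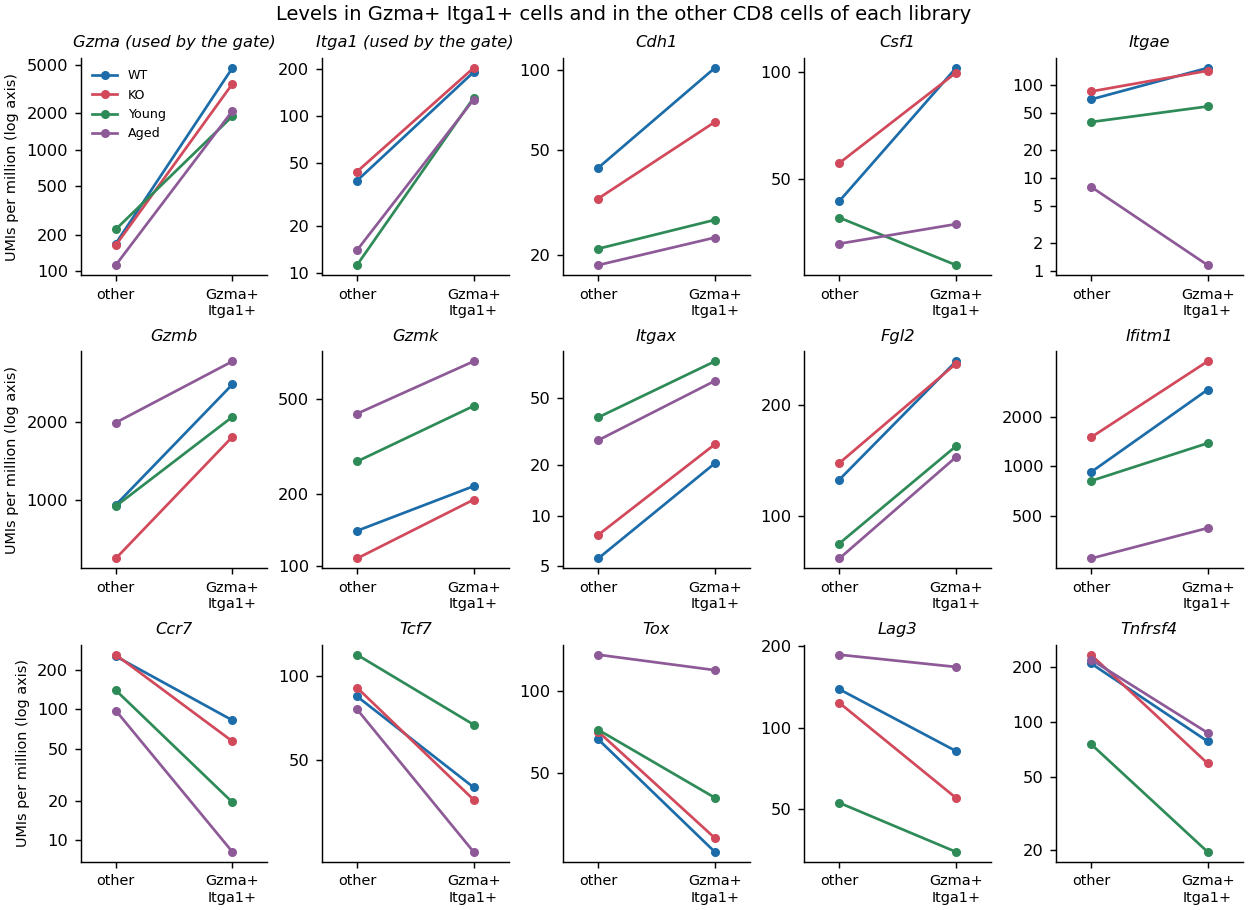
Level of 15 genes in CPM (y axes, log scale, each with its own range) in the other CD8 cells and the Gzma+ Itga1+ cells, joined within each library. Cdh1, Gzmb, Gzmk, Itgax, Fgl2 and Ifitm1 are higher and Ccr7, Tcf7, Tox, Lag3 and Tnfrsf4 lower in the gated cells of all 4 libraries; Csf1 is lower in Young and Itgae lower in Aged, and Gzma and Itga1 define the gate.

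Granzymes B and K, but not the granule genes in general, were higher in the gated cells. Gzmb stood at 2797 CPM against 960.4 in WT, 1758 against 598 in KO, 2097 against 950.3 in Young and 3432 against 1993 in Aged, a log2 fold change of 1.22 ± 0.11 (SE; edgeR adjusted p = 3.98e-05). Gzmk, a granzyme typical of earlier effector and memory CD8 T cells, stood at 216 CPM against 141 in WT, 190.0 against 108 in KO, 469 against 275 in Young and 721 against 435 in Aged, a log2 fold change of 0.70 ± 0.06 (SE; edgeR adjusted p = 1.50e-05). Both were higher in the gate than in the other CD8 cells of each library, and both kept their call whichever library was left out. Cells with Gzma but no Itga1 UMI held 223 CPM of Gzmk in WT, 230 in KO, 503 in Young and 666 in Aged. Gzmb stood at 2292, 1598, 2165 and 2852 CPM in those cells. The part of the Gzma limit in these higher levels was not tested. Of 19 cytotoxic granule genes tested, 4 were higher and 2 lower, with a median log2 fold change of 0.01 beside -0.04 over all genes tested. The other higher members were the cathepsins Ctsw and Ctsd (0.28 and 0.29), and both lost their calls without WT, without KO and without Young. The lower members were the protease inhibitors Cst7 (-0.33), whose call was lost without KO and without Aged, and Serpinb9b (-2.19). Cells past the limit on Gzmd, Gzme and Gzmf stayed among the other CD8 cells, and their part in these lower levels was not tested. Perforin, Prf1, the pore-forming protein that delivers granzymes, stood at 124 CPM against 90.3 in WT, 112 against 103 in KO, 76.6 against 64 in Young and 168 against 172 in Aged and did not pass (edgeR adjusted p = 0.341).

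Gzmk lies within the 2008 kb of chromosome 13 that run from Gzma to Itga1. In the build mm10 with its GENCODE annotation, Gzma (ENSMUSG00000023132) occupies chr13:113093825-113100981, Gzmk (ENSMUSG00000042385) chr13:113171608-113225908 and Itga1 (ENSMUSG00000042284) chr13:114953096-115101964, all on the minus strand. Of the 12 genes tested that lie between or within these ends, 2 were higher and 0 lower, beside 1.78% higher and 3.01% lower of all genes tested. The 2 higher genes, Gzmk and Esm1, overlap and so are not separate places in this stretch. Esm1 encodes the proteoglycan endocan and lies on the plus strand inside the span of Gzmk. Esm1 stood at 14 CPM against 9.13 in WT, 18.5 against 7.48 in KO, 17.4 against 12.8 in Young and 26.8 against 13.3 in Aged, a log2 fold change of 0.83 ± 0.17 (SE; edgeR adjusted p = 0.0132), and missed the threshold without KO (0.12) and without Aged (0.085). Reads of such overlapping genes may have been split in counting, a step that the sources used here do not describe. The alpha2 chain Itga2, the direct neighbour of Itga1, stood at 7.88 CPM against 5.60 in WT, 5.80 against 4.93 in KO, 2.79 against 2.37 in Young and 5.83 against 1.57 in Aged and did not pass (edgeR adjusted p = 0.417).

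The E-cadherin receptor chains Itgae and Itgb7 were higher in the gated cells, and so was Itgax, the CD11c chain found on activated CD8 T cells as well as myeloid cells. Itgax stood at 20.4 CPM against 5.57 in WT, 26.5 against 7.69 in KO, 82.2 against 38.2 in Young and 62.9 against 28 in Aged, a log2 fold change of 1.39 ± 0.15 (SE; edgeR adjusted p = 0.00013). Itgae stood at 151 CPM against 69.5 in WT, 141 against 84.6 in KO, 58.5 against 39.8 in Young and 1.17 against 8.06 in Aged, a log2 fold change of 0.76 ± 0.15 (SE; edgeR adjusted p = 0.0104). It was nearly absent from the gated Aged cells, with 1 UMI in 82 cells, and the edgeR adjusted p was 0.16 without WT, 0.059 without KO and 0.051 against depth-matched other cells. Itgb7 stood at 180.2 CPM against 132 in WT, 219 against 161 in KO, 301 against 260.0 in Young and 277 against 193 in Aged (log2 0.37; edgeR adjusted p = 0.062 without Aged). Of 16 integrin and collagen receptor genes, 4 were higher and 1 lower, with a median of 0.10. The fourth was Itgam, with 12, 6, 0 and 1 UMIs in the gated cells of WT, KO, Young and Aged, 8 of them in 1 WT cell, and its call was lost without WT and without Aged. The lower member was Itgav (-0.41), whose call was lost without WT and without KO. Itgb1, the partner chain of Itga1, stood at 293 CPM against 294 in WT, 474 against 411 in KO, 251 against 231 in Young and 171 against 142 in Aged and did not pass (edgeR adjusted p = 0.413).

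Tissue residency genes moved unevenly. Of 29 tested, 6 were higher and 3 lower, with a median of 0.07. Without WT, 3 were higher and 3 lower, beside 81 and 213 of all genes tested. Against other cells matched in depth 9 were higher and 2 lower, beside 353 and 546 of all genes tested. Besides Cdh1, Itgae and Itgb7, the higher members were the lysophospholipid receptor Gpr34 (1.03), the stress response gene Osgin1 (0.73) and the exonuclease Isg20 (0.40). Gpr34 lost its call without WT (edgeR adjusted p = 0.073), and Isg20 without WT, without KO and without Aged (0.17, 0.22 and 0.10). Osgin1 stood at 89.6 CPM against 42.1 in WT, 42.1 against 29.3 in KO, 104 against 67.8 in Young and 112 against 68.4 in Aged and kept its call whichever library was left out. The lower members were the chemokine Xcl1 (-0.60) and the receptor-induced factors Nr4a1 (-0.40; lost without WT, Young or Aged) and Nr4a2 (-0.45). The residency markers Cd69 and Cxcr6 did not pass: Cd69 stood at 403 CPM against 389 in WT, 505 against 450.4 in KO, 463 against 455 in Young and 383 against 413 in Aged. Cxcr6 stood at 339.7 CPM against 294 in WT, 379 against 357 in KO, 266 against 204 in Young and 352 against 294 in Aged (edgeR adjusted p = 0.112). Among 19 TGF-beta signalling genes, 3 were higher and 1 lower, the higher ones being Cdh1, Itgae and the inhibitor Ldlrad4, which lost its call whichever library was left out.

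Receptors shared with NK cells were among the higher genes. Of 23 tested, 6 were higher and 1 lower, with a median of 0.42. Klre1, a lectin-like receptor that pairs with Klri1 or Klri2, stood at 56.3 CPM against 32.8 in WT, 85.9 against 49 in KO, 57.1 against 21.6 in Young and 39.6 against 19.4 in Aged, a log2 fold change of 0.92 ± 0.11 (SE; edgeR adjusted p = 0.000333). Klrk1 (NKG2D), an activating receptor for stress-induced ligands, stood at 372 CPM against 211 in WT, 511 against 299 in KO, 277 against 224 in Young and 278 against 228 in Aged, and Klrd1 (CD94) at 442 CPM against 322 in WT, 544 against 455 in KO, 289.8 against 206 in Young and 219 against 169.5 in Aged, with log2 fold changes of 0.54 and 0.36. The others were Cd244a (1.18), Klrc2 (0.53) and Slamf7 (0.41), each of which lost its call without at least 1 of WT, KO and Aged, while Klre1, Klrk1 and Klrd1 kept theirs. The lower member was the adaptor Tyrobp, at 19.3 CPM against 48.3 in WT, 2.18 against 19.3 in KO, 53.6 against 61.1 in Young and 4.66 against 16.1 in Aged, and its call was lost without WT, without Aged and without cells that hold UMIs of other cell types (edgeR adjusted p = 0.16, 0.099 and 0.93). Of 8 tested NK cell markers, 1 was higher (Klre1) and 2 lower (Tyrobp and Eomes). Klr genes are paralogs in 1 cluster, and the sources used here do not say how reads shared between them were counted.

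Of 19 tested genes of effector cells, 6 were higher and 0 lower, with a median of 0.14, and 3 were higher without WT, without KO and without Young. Over all genes tested, 81, 87 and 200 were higher in the same settings. Lgals3, the carbohydrate-binding protein galectin-3, stood at 965 CPM against 494 in WT, 1256 against 589.9 in KO, 862 against 718 in Young and 763 against 509 in Aged, a log2 fold change of 0.70 ± 0.11 (SE; edgeR adjusted p = 0.00198). S100a6, a calcium-binding protein, stood at 2648 CPM against 1798 in WT, 2251 against 1722 in KO, 2079 against 1586 in Young and 2235 against 1739.7 in Aged (log2 0.39). The remaining 4 were Emp3, Lgals1, Ly6c2 and S100a4, between 0.25 and 0.46, and each lost its call without at least 1 library. Ccr2, a chemokine receptor of inflamed tissue, was also higher, at 67.4 CPM against 41.4 in WT, 112 against 64 in KO, 73.1 against 41.4 in Young and 53.6 against 42.4 in Aged (log2 0.68), and kept its call whichever library was left out.

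Several of the 12 most raised genes belong to no single pathway. Fgl2, a secreted immunoregulatory fibrinogen-like protein, stood at 263 CPM against 125 in WT, 259 against 139 in KO, 155 against 84.2 in Young and 144 against 76.7 in Aged, a log2 fold change of 0.91 ± 0.07 (SE; edgeR adjusted p = 3.79e-06). Its levels in the gated cells were about equal within each pair and lay well above those of the other cells in every library. Ifitm1, an interferon-inducible membrane protein, stood at 2911 CPM against 917 in WT, 4332 against 1493 in KO, 1376 against 812 in Young and 419 against 274 in Aged, a log2 fold change of 1.15 ± 0.14 (SE; edgeR adjusted p = 0.000542). In Young and Aged, cells with Gzma but no Itga1 UMI held more Ifitm1 than the gate, 1633 and 519 CPM. In WT and KO such cells held less, 2175 and 3190 CPM. With at least 5 Gzma and 2 Itga1 UMIs, Ifitm1 stood at 616 CPM in Young and 58.7 in Aged, below the other CD8 cells. That stricter class held 3170 CPM in WT and 5070 in KO. In the gated Aged cells, 78.3% of the Ifitm1 UMIs lay in 5 cells. Ifitm2, the neighbour of Ifitm1, had a log2 fold change of 0.96, and kept its call whichever library was left out. Ifitm3 stood at 922 CPM against 429 in WT, 784 against 312 in KO, 297 against 387 in Young and 148 against 168 in Aged and did not pass (edgeR adjusted p = 0.216). Without cells that hold UMIs of other cell types Ifitm3 passed (log2 1.27, edgeR adjusted p = 3.9e-05). Ifitm genes are close paralogs. The UDP-sugar receptor P2ry14 (1.29), the glutathione transferase Gstm5 (1.18) and the adaptor Itsn1 (1.02) stood between 8.16 and 39.1 CPM in the gated cells and lost their call without WT, with edgeR adjusted p of 0.061, 0.093 and 0.11. Itsn1 also missed it without KO (0.14) and without Aged (0.052). Socs2, an inhibitor of cytokine signalling, stood at 50.2 CPM against 22.7 in WT, 33 against 16 in KO, 17.4 against 13.1 in Young and 36.1 against 17.2 in Aged (log2 0.96). B4galnt4 (1.00), a glycosyltransferase, and Ly6g5b (0.95) complete the set, and these 3 kept their calls whichever library was left out.

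Many genes of naive or central memory cells and some of lymphoid recirculation were lower in the gated cells. Of 20 naive and central memory genes, 0 were higher and 12 lower, with a median of -0.49. Of 15 egress and recirculation genes, 1 was higher (Ly6c2) and 6 lower, with a median of -0.34. Ccr7, the receptor that guides T cells into lymph nodes, stood at 82.4 CPM against 254 in WT, 56.9 against 261 in KO, 19.5 against 139.8 in Young and 8.16 against 97.8 in Aged, a log2 fold change of -2.16 ± 0.16 (SE; edgeR adjusted p = 5.97e-06). Tcf7, the transcription factor TCF1 of stem-like and memory T cells, stood at 39.8 CPM against 84.5 in WT, 35.9 against 90.9 in KO, 66.9 against 119 in Young and 23.3 against 76 in Aged, a log2 fold change of -1.19 ± 0.11 (SE; edgeR adjusted p = 5.08e-05). Slamf6, a receptor of stem-like T cells, stood at 17.2 CPM against 43.2 in WT, 14.9 against 49.2 in KO, 15.3 against 24 in Young and 10.5 against 23.4 in Aged. All 3 genes were lower in each library and kept their calls whichever library was left out. Klf2 (-0.37) and Il7r (-0.34) were also called, but not against other cells matched in depth, where edgeR gave adjusted p of 0.40 and 0.52, and Il7r was not called without WT, Young or Aged either. The egress receptor S1pr1 stood at 69.2 CPM against 92.9 in WT, 88.8 against 99.7 in KO, 100.3 against 89.7 in Young and 44.3 against 72.6 in Aged and did not pass (edgeR adjusted p = 0.222).

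Transcription factors of exhausted and memory T cells were lower in the gated cells or did not pass the test. Of 30 tested, 0 were higher and 15 lower, with a median of -0.38. Without WT, 9 were lower, beside 213 of all genes tested. Tox, which sustains exhausted CD8 T cells, stood at 25.4 CPM against 66.5 in WT, 28.6 against 71 in KO, 40.4 against 72.1 in Young and 120.0 against 137 in Aged, a log2 fold change of -0.96 ± 0.15 (SE; edgeR adjusted p = 0.00213). The gap was wide in WT, KO and Young and small in Aged. Id3 (-1.13), Bach2 (-0.81) and Rora (-0.48) were among the 15 and kept their calls whichever library was left out, whereas Maf (-0.90) and Tox2 (-2.47) lost theirs without WT (edgeR adjusted p = 0.073 and 0.14). Prdm1 (Blimp-1) stood at 22.9 CPM against 22.6 in WT, 30.5 against 24.1 in KO, 9.75 against 14.4 in Young and 23.3 against 21.8 in Aged, and Zfp683 (Hobit), a factor of resident cells, at 0.717 CPM against 0.708 in WT, 1.81 against 0.927 in KO, 9.06 against 8.30 in Young and 9.32 against 4.65 in Aged. Neither passed, with edgeR adjusted p of 0.912 and 0.547.

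Inhibitory receptors did not move as a group. Of 17 tested, 1 was higher (Cd244a) and 1 lower (Lag3), with a median of 0.14. Lag3, which binds MHC class II, stood at 82.1 CPM against 139 in WT, 55.1 against 124 in KO, 34.8 against 52.8 in Young and 168 against 186 in Aged, a log2 fold change of -0.73 ± 0.12 (SE; edgeR adjusted p = 0.00327). Pdcd1 (PD-1) stood at 355 CPM against 280.2 in WT, 354 against 321 in KO, 201 against 238 in Young and 658 against 480.3 in Aged, and Havcr2 (TIM-3) at 80.6 CPM against 61.7 in WT, 68.2 against 66 in KO, 82.2 against 62.4 in Young and 151 against 121 in Aged, with edgeR adjusted p of 0.403 and 0.114. Among 23 costimulatory and activation receptors, 1 was higher and 3 lower. Tnfrsf4 (OX40), a costimulatory receptor induced by antigen, stood at 78.5 CPM against 209 in WT, 59.5 against 233 in KO, 19.5 against 75.9 in Young and 87.4 against 219.7 in Aged, a log2 fold change of -1.68 ± 0.10 (SE; edgeR adjusted p = 9.53e-07). Tnfrsf18 (-0.48) and Cd27 (-0.62) were lower too, and Il2ra, the high-affinity interleukin-2 receptor chain, was higher (0.52; edgeR adjusted p = 0.22 without WT and 0.056 without Young).

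Some cytokine and activation transcripts were lower in the gated cells. Cells past the Ccl1 limit stayed among the other CD8 cells, and their part in these differences, that of Penk included, was not tested. Of 25 cytokines and chemokines, 0 were higher and 7 lower, with a median of -0.25. Penk, the enkephalin precursor, stood at 17.2 CPM against 66.2 in WT, 12.3 against 49.1 in KO, 1.39 against 20.7 in Young and 2.33 against 58.5 in Aged, a log2 fold change of -2.29 ± 0.21 (SE; edgeR adjusted p = 4.15e-05). Ccl3, a chemokine released upon receptor engagement, stood at 14.7 CPM against 42.8 in WT, 13.4 against 52.9 in KO, 11.8 against 38.1 in Young and 58.3 against 111 in Aged (log2 -1.55), and Csf2 (GM-CSF) at 10.4 CPM against 29.1 in WT, 5.80 against 28.1 in KO, 0 against 7.61 in Young and 0 against 5.54 in Aged. Ifng, the interferon of effector T cells, stood at 134 CPM against 145 in WT, 170.1 against 172 in KO, 191 against 220.2 in Young and 326 against 307 in Aged and did not pass (edgeR adjusted p = 0.471). Of 19 immediate early genes, which are switched on within minutes of stimulation, 0 were higher and 11 lower, with a median of -0.29. Without Aged 5 were lower, beside 226 of all genes tested. Egr1 stood at 52.3 CPM against 103 in WT, 54.4 against 73.9 in KO, 78.7 against 136 in Young and 88.5 against 104 in Aged, and Myc at 10.0 CPM against 20.7 in WT, 3.99 against 11.5 in KO, 11.8 against 29.9 in Young and 11.7 against 26 in Aged, with log2 fold changes of -0.68 and -1.26. Among 22 T cell receptor signalling genes, 0 were higher and 3 lower, namely Socs3 (-0.76), Ubash3b and Nfatc1, the last of which lost its call whichever library was left out and Ubash3b without WT or KO.

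**Figure D4:**
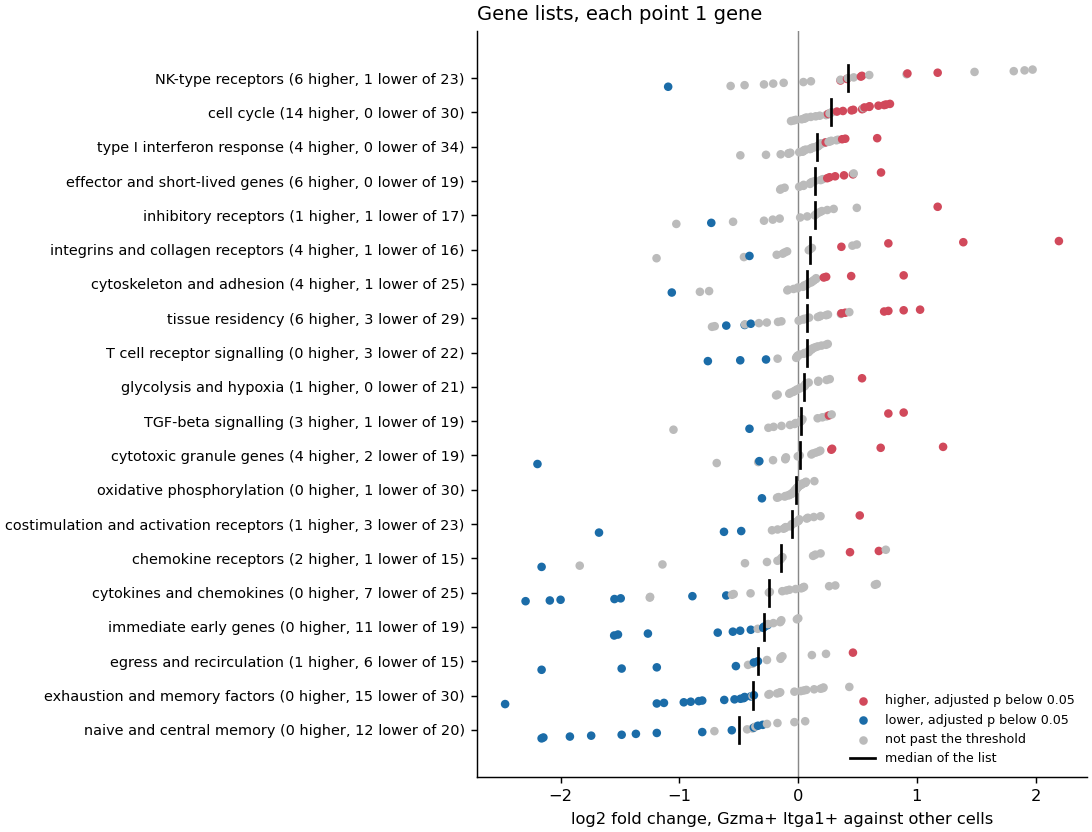
Log2 fold change of every tested member of 20 gene lists (x axis) in Gzma+ Itga1+ cells against the other CD8 cells, with called genes in red (higher) and blue (lower), the others in grey and the list median as a black bar. The lists of naive, exhaustion, egress, immediate early and cytokine genes hold most of the blue points, and the cell cycle list, with 14, holds more red points than any other list; some genes are in several lists.

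Some cell cycle genes were higher in the gated cells, and their count moved with depth. Of 30 tested, 14 were higher and 0 lower, with a median of 0.28. Ube2c, a mitotic ubiquitin-conjugating enzyme, stood at 124 CPM against 83.7 in WT, 96.1 against 48.7 in KO, 231 against 134 in Young and 240.0 against 138 in Aged, a log2 fold change of 0.74 ± 0.07 (SE; edgeR adjusted p = 7.38e-05). Cells with at least 2 UMIs over the cycling genes were 26.6% of the gated and 23.0% of the other cells in WT, 24.3% and 21.0% in KO, 45.0% and 25.6% in Young and 45.1% and 29.4% in Aged. Against other cells matched in depth, 2 of the 30 genes were higher and 0 lower, with a median of 0.06. Over all genes tested, 353 were higher and 546 lower in that setting. Without cells that hold UMIs of other cell types, 2 were higher as well, beside 112 of all genes tested. With cycling cells left out of both sets, 12 naive and central memory and 16 exhaustion and memory genes were lower. Over all genes tested, 390 were lower then.

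Of 34 genes of the type I interferon response, 4 were higher and 0 lower, with a median of 0.16: Ifit2 (0.67), Isg20, Phf11b and Sp100. This count was 0 without KO, 1 without WT, 1 without Aged and 14 against other cells matched in depth. Over all genes tested, 87, 81, 109 and 353 were higher in the same settings. Few metabolic genes passed the test. In glycolysis and hypoxia 1 of 21 was higher (Bnip3, 0.54), and in oxidative phosphorylation 1 of 30 was lower (Ndufa4, -0.30); both lost their calls without WT and without KO. Of 25 cytoskeleton and adhesion genes, 4 were higher and 1 lower, among them the myosin Myo1f (0.45).

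The mast cell genes Cpa3, Mcpt2, Tpsb2, Mcpt4, Cma1 and Tpsab1 were the 6 lowest of the named genes. Mcpt2, a mast cell protease, stood at 12.2 CPM against 1917 in WT, 2.54 against 717 in KO, 0 against 1.90 in Young and 0 against 0.0311 in Aged. Of the 6 mast cell and basophil markers, 1 could be tested and was lower. Among the other marker lists, 4 of 9 monocyte and macrophage genes, 1 of 6 tumour or epithelial genes and 2 of 5 fibroblast genes were lower and 0 higher. None of 6 dendritic cell, 2 B cell and 1 endothelial genes was called by edgeR. Some summed levels were higher in the gate: the dendritic cell markers in Young (7736 against 5645 CPM), the tumour markers in WT (400.2 against 348) and the fibroblast markers in KO (77.6 against 44.4). The 9 gamma-delta T cell markers summed to 150 CPM against 78.2 in WT and 82.3 against 65.1 in KO. In Aged they summed to 31.5 against 24.1, from 27 UMIs in the gate, and in Young to 16.7 against 21.5. Among gamma-delta T cell markers, Trgc2 was higher, at 106 CPM against 32 in WT, 67.8 against 37.8 in KO, 13.9 against 16.7 in Young and 28 against 19.3 in Aged, and Il17a lower, while Trdc did not pass; the Trgc2 call was lost without WT (edgeR adjusted p = 0.16) and without Aged (0.054). Among CD4 and regulatory T cell markers Il2ra was higher and Ikzf2 lower, and Cd4 itself was at 0 in the gated WT and KO cells. Fgb, Ccl7 and Serpine2 were the other lowest genes, and Dapl1, a gene of resting T cells, had 22, 5, 8 and 6 UMIs in the gated WT, KO, Young and Aged cells and a log2 fold change of -2.14 ± 0.23 (SE; edgeR adjusted p = 0.00017).

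Cells holding 2 or more UMIs over the myeloid, B, mast, tumour, fibroblast and endothelial markers, or any Cd4 or Foxp3 UMI, were 47.1% of the gated and 40.2% of the other cells in WT, 42.4% and 40.1% in KO, 44.3% and 35.2% in Young and 42.7% and 38.8% in Aged. Their part in the results was not tested beyond leaving them out. Without them, 112 genes were higher and 145 lower, of which 94 and 121 were also called with all cells. The 12 largest changes were then those of Socs2, Spats2, P2ry14, Itsn1, Trgc2, Gzmb, Klre1, Itgax, Ifitm3, Anxa1, Ifitm1 and Ifitm2. The 12 smallest were those of Penk, Ramp3, Trat1, Tnfsf8, Ccr7, Tnfrsf4, Slamf6, St6galnac3, Timp2, Rab11fip1, Maf and Fas. No mast cell gene remained among them, but mast cell markers were among those by which cells were left out. The count of lower genes was then 10 of 20 for naive and central memory and 10 of 30 for exhaustion and memory factors.

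The next question was how the gated cells differed between the libraries labelled KO and WT. With 1 library on each side there is no test, and a gene was counted when its ratio of CPM was at least 1.5 on the log2(CPM + 1) scale in either direction. Of 7484 genes measured within the gated cells, 185 were higher in KO (2.47%) and 500 lower (6.68%). With TMM factors these were 274 and 361. The largest increases were those of the heat shock genes Hspa1b and Hspa1a. Hspa1b stood at 197 CPM in KO and 35.5 in WT, a ratio of 5.55 (4.47 to 6.95), from 20 of 288 KO and 17 of 278 WT cells, with 89.1% of the KO UMIs in 5 cells. In the other CD8 cells its ratio was 0.852. Cxcl10, a chemokine induced by interferon, stood at 513 CPM in KO and 185 in WT, a ratio of 2.77 (2.51 to 3.07), with 65.7% of its KO UMIs in 5 cells. Its log2 ratio was -0.16 once cells with UMIs of other cell types were left out.

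More even differences between KO and WT were found in genes spread over many cells. Mpp7, a scaffold protein of cell polarity, stood at 81.9 CPM in KO and 29.7 in WT, a ratio of 2.76 (2.13 to 3.59), from 92 KO and 51 WT cells, and at a ratio of 1.57 in the other CD8 cells. Sv2c stood at 46.8 CPM in KO and 20.4 in WT, a ratio of 2.29 (1.66 to 3.19), from 77 KO and 46 WT cells. Arid3a (3.14), Arl5c (2.64) and Nrgn (2.43) complete the 8 largest ratios. In the other CD8 cells the ratios were 1.71 for Sv2c, 1.18 for Arid3a, 1.69 for Arl5c and 2.04 for Nrgn. Cdh1 stood at 63.5 CPM in KO and 101 in WT, a ratio of 0.626 (0.515 to 0.758). Outside the gate Cdh1 stood at 32.7 CPM in KO and 42.6 in WT. Gzmb stood at 1758 CPM in KO and 2797 in WT, a ratio of 0.628 (0.606 to 0.651), and in the other CD8 cells its ratio was 0.622, so the lower KO level was not confined to the gate. Osgin1 stood at 42.1 CPM in KO and 89.6 in WT, a ratio of 0.470 (0.373 to 0.587), against 0.697 in the other CD8 cells. Itgb1, the partner of Itga1, stood at 474 CPM in KO and 293 in WT, a ratio of 1.61 (1.48 to 1.76), and the interleukin-7 receptor Il7r at 486 CPM in KO and 315 in WT, a ratio of 1.54 (1.42 to 1.68). Both were also higher in the other CD8 cells, with ratios of 1.39 and 1.36. Ccr2 stood at 112 CPM in KO and 67.4 in WT, a ratio of 1.66 (1.38 to 2.00), with 1.55 outside the gate.

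Among the lists, few members passed the fold between KO and WT. Of 17 measured granule genes, 0 were at least 1.5 times higher and 3 lower (Gzmb, Gzmc and Ctsc), with a median log2 ratio of -0.13 beside -0.06 over all measured genes. Of 15 NK-type receptors 4 were higher and 3 lower, of 25 residency genes 2 and 2, of 25 exhaustion and memory factors 4 and 2, and of 13 inhibitory receptors 0 and 2. The factor Nr4a1, which reports receptor signalling, stood at 151 CPM in KO and 73.5 in WT, a ratio of 2.06 (1.74 to 2.45). The 8 smallest ratios, Ccl2, Il1b, Ptgs2, Ccl17, Oaf, Ccl9, Vcam1 and Mgp, came from few cells: Ccl2 had 823 UMIs in 10 WT cells, 45.8% of them in 1 cell, and Ccl17 had 84 UMIs in 1 WT cell. The gamma-delta constant gene Trdc had 54 UMIs in the gated WT cells and 0 in KO, where 3 UMIs bound the ratio at 0.0562 or below.

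The comparison of Aged with Young donors was made in the same way within the Rag1-/- pair. Of 7896 measured genes, 1089 were higher in Aged (13.8%) and 587 lower (7.43%). With TMM factors these were 773 and 796, which moved the median log2 ratio of all genes by -0.12. Several inhibitory receptors were higher in the gated Aged cells. Of 15 measured, 7 were at least 1.5 times higher and 2 lower, with a median log2 ratio of 0.39 beside 0.08 over all measured genes and 0.41 in the other CD8 cells. Pdcd1 stood at 658 CPM in Aged and 201 in Young, a ratio of 3.27 (2.83 to 3.78), and in the other CD8 cells at a ratio of 2.02. Lag3 stood at 168 CPM in Aged and 34.8 in Young, a ratio of 4.82 (3.47 to 6.79), with a ratio of 3.52 outside the gate. Ctla4 stood at 313 CPM in Aged and 107 in Young, a ratio of 2.94 (2.40 to 3.61), with 2.78 outside it. Tox stood at 120.0 CPM in Aged and 40.4 in Young, a ratio of 2.97 (2.13 to 4.17), with 1.90 outside it. Without cells that hold UMIs of other cell types, the ratios of these 4 genes were 4.49, 6.05, 4.05 and 4.04, with 35 Aged and 62 Young cells left out. In that setting 4 of 12 measured inhibitory receptors were higher and 3 lower.

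Some glycolytic and granule genes were also higher in Aged, and some recirculation genes lower. Of 20 measured genes of glycolysis and hypoxia, 8 were higher and 0 lower, with a median log2 ratio of 0.56 against 0.38 in the other CD8 cells. The glucose transporter Slc2a3 stood at 64.1 CPM in Aged and 18.8 in Young, a ratio of 3.41 (2.11 to 5.62), and Hif1a, the oxygen-regulated factor, at 361 CPM in Aged and 175 in Young, a ratio of 2.07 (1.74 to 2.45). Of 18 granule genes, 6 were higher and 0 lower. Without cells that hold UMIs of other cell types, 7 of 17 glycolysis and hypoxia genes and 2 of 17 granule genes were higher, 0 and 1 lower, beside 847 higher and 595 lower of all 5630 measured. Prf1 stood at 168 CPM in Aged and 76.6 in Young, a ratio of 2.19 (1.70 to 2.83), and Gzmb at 3432 CPM in Aged and 2097 in Young, a ratio of 1.64 (1.55 to 1.72), with ratios of 2.68 and 2.10 outside the gate. Of 14 egress and recirculation genes, 1 was higher and 6 lower, and Tcf7 stood at 23.3 CPM in Aged and 66.9 in Young, a ratio of 0.348 (0.204 to 0.568). Itga4, the alpha4 chain of the receptor for VCAM-1, stood at 212 CPM in Aged and 70.4 in Young, a ratio of 3.01 (2.35 to 3.88). Outside the gate the Itga4 ratio was 2.88. Itgae stood at 1.17 CPM in Aged and 58.5 in Young, a ratio of 0.0199 (0.000498 to 0.114), from 1 Aged UMI, and its ratio in the other CD8 cells was 0.202. Ifitm1 stood at 419 CPM in Aged and 1376 in Young, a ratio of 0.305 (0.272 to 0.341), with 0.337 outside the gate.

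**Figure D5:**
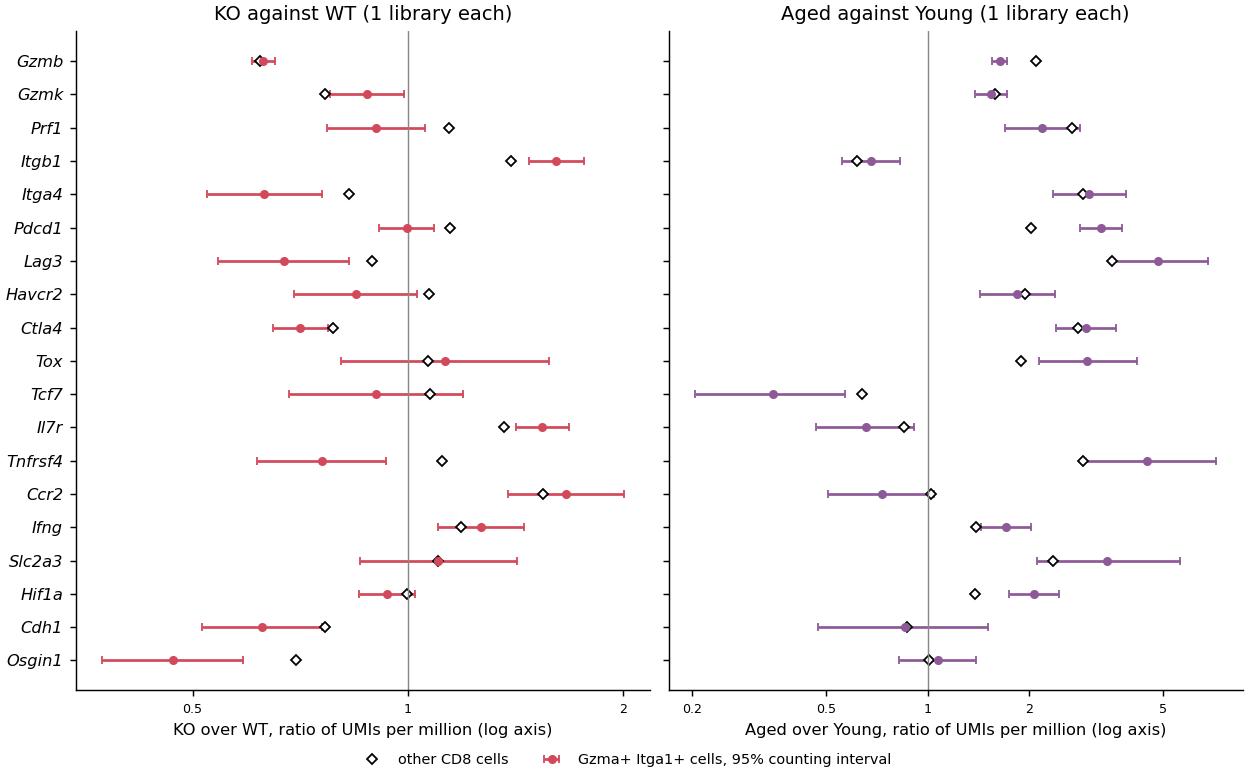
Ratio of levels in KO over WT (left) and Aged over Young (right) for 19 list genes (x axes, log scale), within the Gzma+ Itga1+ cells (filled, with 95% counting intervals) and in the other CD8 cells (open diamonds). Pdcd1, Lag3, Ctla4 and Tox lie between 2.94 and 4.82 in the gated Aged over Young cells, with diamonds to the right of 1 as well; in KO over WT Gzmb lies at 0.628 in the gate and 0.622 outside.

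Among the extreme ratios of Aged against Young, those of heat shock and antigen presentation genes came from few cells. Hspa1b had 168 UMIs in 6 Aged cells and 4 UMIs in 4 Young cells. Metallothioneins Mt1 and Mt2, Ccl3, Tnfrsf4 and Epas1 stood at ratios of 4.18, 5.51, 4.92, 4.48 and 4.32, with UMIs in 42, 17, 17, 25 and 22 of the 82 Aged cells. In the other CD8 cells their ratios were 2.09, 2.19, 2.91, 2.90 and 2.39. The 8 smallest ratios were those of H2-Eb1, H2-Aa, Plbd1, Cd74, H2-Ab1, Cd83, Pkib and Wdfy4, genes of antigen-presenting cells. Cd74, the invariant chain, had 3675 UMIs in 25 of 140 gated Young cells, 88.3% of them in 5 cells, and 18 UMIs in 10 Aged cells. The 9 dendritic cell markers summed to 7736 CPM in the gated Young cells and 148 in Aged, against 5645 and 1311 in the other CD8 cells. Leaving out cells with UMIs of other cell types, for which Cd74 is itself a marker, left 1 Aged and 2 Young UMIs of it. Mki67, the proliferation antigen, stood at 150.3 CPM in Aged and 234 in Young, a ratio of 0.642 (0.520 to 0.789) with all cells and at a ratio of 0.246 without those cells, when 12 of 24 measured cell cycle genes were lower and 1 higher in Aged.

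T cell receptor V beta segments, which the rule did not use, could be read in the Young and Aged libraries. A Trbv segment was assigned in 91.4% of the gated Young and 97.6% of the gated Aged cells, but in only 13.3% in WT and 18.4% in KO. Trbv1, Trbv15 and Trbv12-2 led in WT, and Trbv19, Trbv12-2 and Trbv29 in KO, from 37 and 53 assigned cells. In the gated Young cells Trbv12-2 led with 16.4% of 128 assigned cells (10.5 to 24), against 11% of the other CD8 cells. Trbv16 followed with 14.1% (8.55 to 21.3) against 8.67%, and Trbv12-1 with 10.2% (5.52 to 16.7) against 13.9%. Trbv26 and Trbv15 in Young and Trbv1 in Aged were singled out after their values were seen. Trbv26, the leading segment of the other Young cells at 18.5% (17.6 to 19.3), was found in 4.69% of the gated cells (1.74 to 9.92). Trbv15 was found in 6.25% of the gated Young cells (2.74 to 11.9) against 0.972% of the others (0.778 to 1.20). In the gated Aged cells Trbv12-1 and Trbv13-3 each made up 20% of 80 assigned cells (11.9 to 30.4), against 26.6% and 8.26% in the other cells. Trbv1, at 11.9% of the other Aged cells, was found in 2.5% of the gated ones (0.304 to 8.74). The effective number of segments was 11.5 in the gate and 9.73 outside it in Young, and 8.44 and 8.56 in Aged. Segments are shared by many clones, and clonotypes were not analysed here.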

How the data were processed

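Single-cell RNA was measured in 4 libraries, 1 for each group, of CD45+ CD8+ cells sorted from MB49 tumours of 3 pooled mice. The deposited files hold raw UMI counts per gene and barcode, written by Cell Ranger 6.1.1 in the WT and KO files and by 7.1.0 in the others, per the file headers. The build mm10, Seurat 3.2.3 and a further Cell Ranger, 6.0.0, are named in the submitters' processing notes, which do not say what each served. WT and KO libraries were 3' tags, and Young and Aged libraries came from an immune profiling kit, per the labels' protocols.

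Barcodes were kept from 1000 UMIs and 500 genes upwards if no more than 10% of their UMIs were mitochondrial. No doublet caller was run; an alternative left out the 8% of barcodes with the most UMIs. Counts were summed per library over gated and other cells, and tested with edgeR 4.0.16 in R 4.3.3 (TMM, default expression filter, quasi-likelihood test, Benjamini-Hochberg adjustment). The library was a block, because both sums of a pair come from the same pooled sample. DESeq2 1.42.0 was an alternative. Depth-matched other cells were drawn within 10 bins of UMIs. The procedure was tested on simulated counts.

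Between single libraries, ratios of CPM were used with exact intervals at 95%; genes needed at least 10 CPM in 1 library and 20 UMIs in all. Genes named were the 4 markers Gzma, Itga1, Csf1 and Cdh1, of which Csf1 and Cdh1 were not used by the rule. Also named were the 12 largest and 12 smallest fold changes among called genes of at least 20 CPM with 1 direction in 4 libraries. The extremes of each list and the 3 leading V beta segments were named as well. So were the 8 largest and 8 smallest ratios of each pair of libraries at 20 CPM and 50 UMIs. Other genes stand as members of the lists. The cells, lists and rules were chosen with earlier results of these data known. No column of other samples was present. Some genes of the lists are not reported here.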

Additional observations from a re-analysis of the deposited data

Results flagged for a closer look

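The difference between gated and other CD8 cells was itself compared between the pairs of libraries, with the interaction term of edgeR, in a test added after the data were seen. It called 7 genes. Ifitm3 was higher in the gated cells of WT and KO, at 922 CPM against 429 and 784 against 312, and lower in those of Young and Aged, at 297 against 387 and 148 against 168 (log2 difference 1.55 ± 0.11 SE, edgeR adjusted p = 0.00462). Ifitm1 was higher in the gate in all 4 libraries, but by more in WT and KO (log2 difference 0.93 ± 0.10 SE, edgeR adjusted p = 0.0333). Under the strict gate Ifitm1 stood at 616 CPM in 24 Young and 58.7 in 13 Aged cells, below the other CD8 cells. The other 5 stood near their outside level or above it in the gated WT and KO cells and at 0 or 1 to 2 UMIs in the gated Young and Aged cells, so no fold is given: Igfbp4 (edgeR adjusted p = 0.00462), Krt8 (0.0103), Rhox5 (0.0333), Hbegf (0.0385) and Timp1 (0.0414). In the gated KO cells these UMIs were mostly those of 1 cell: 93 of 94 for Krt8, 50 of 50 for Igfbp4, 62 of 62 for Rhox5, 29 of 30 for Timp1 and 59 of 69 for Hbegf. In WT, 5 cells held 97.5% to 100% of them. Krt8, a keratin of the tumour marker list, stood at 155 CPM in the gated and 147 in the other WT cells, at 34.1 and 46.2 in KO, at 0.697 and 84.0 in Young and at 0 and 21.6 in Aged. That list summed to 400.2 CPM in the gated and 348 in the other WT cells, to 74.0 and 116 in KO, to 6.27 and 199 in Young and to 2.33 and 49.7 in Aged. No gene was called without cells that hold UMIs of other cell types, for which Krt8 is itself a marker. In that setting Ifitm3 was higher in the gate in all 4 libraries (log2 fold change 1.27, edgeR adjusted p = 3.9e-05). Host, kit and software differ together between the pairs and cannot be told apart.

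Barcodes with no UMI of Cd3d, Cd3e or Cd3g lay outside the gate. In Young, 14 of 411 such barcodes (3.41%, exact binomial interval 1.87 to 5.65) carried at least 2 Gzma and 1 Itga1 UMIs. All 14 held a UMI of the NK receptors Ncr1 or Klrb1c, and 0 held one of Cd8a or Cd8b1. In Aged there were 2 of 384, and in WT and KO 0 of 219 and 0 of 76, with upper limits of 1.67% and 4.74%.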

How the results depend on the processing

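The main test called 238 higher and 402 lower genes. DESeq2's own test called 230 lower genes, and 607 were lower without the expression filter. Leaving out 1 library gave 81 to 200 higher and 211 to 377 lower genes; WT gave the fewest higher ones. A strict gate (5 Gzma and 2 Itga1 UMIs) gave 98 and 177, a loose one (1 Gzma UMI) 55 and 144, and the removal of cells with UMIs of other cell types 112 and 145. Depth-matched other cells gave 353 and 546. Without the replicate block, edgeR called 0 higher and 0 lower genes, against 148 and 327 at an unadjusted p under 0.05.

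Shares under the strict gate, the loose gate and thinning were 1.26%, 4.25% and 1.06% in WT, 1.15%, 4.81% and 1.08% in KO, 0.245%, 1.95% and 0.352% in Young, and 0.158%, 1.49% and 0.159% in Aged. KO against WT gave 294 higher and 809 lower genes without a minimum, 106 and 289 with a pseudocount of 5 CPM, 400 and 1022 with the strict gate, 377 higher with thinning and 355 higher without cells that hold UMIs of other types. Aged against Young gave 483 higher with thinning.

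Directions reversed for Ly6c1 without KO (-2.30, within -2.30 to 0.78 over the libraries left out), Jup (0.14) and Krt7 (0.25) with the loose gate, and Mcpt4 (0.031) and Cma1 (0.31) without cells of other types. In KO against WT they reversed for Ccl17 without the highest UMI barcodes (1.30) and Cxcl10 without other types (-0.16). In Aged against Young they reversed for Hspa1a with the strict gate (-1.86) and for H2-Eb1 (1.83) and H2-Ab1 (0.28) without other types. With V beta calls of at least 2 UMIs, from 4 cells each, Trbv1 and Trbv12-2 were 0% and Trbv15 50% in WT, and Trbv12-2 was 50% and Trbv29 0% in KO. The cause was not tested. With 82 to 288 gated cells a library, transcripts below about 10 CPM rest on few UMIs, and 1 library a group gives no spread between mice.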
